A study of Mus musculus with 2 samples.

Results

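Malat1, Neat1, Meg3, Kcnq1ot1, Miat and Gm26870 are 6 noncoding RNAs whose levels were examined in the oligodendrocyte lineage of the uninjured and the crushed optic nerve. They were taken by name from the 31053 gene rows of the deposited scRNA-seq tables, and all 6 were found. The list was drawn up with levels in these same cells already known, so what follows describes the RNAs and tests nothing. Together they held 379248 of the 7186631 unique molecular identifiers (UMIs, each standing for a captured RNA molecule) in 1369 barcodes, and Malat1 alone accounted for 369097 of them.

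The study asked which cells of the oligodendrocyte lineage repopulate the glial scar after optic nerve crush (ONC). Wildtype mice of strain 129S1/SvlmJ, pooled male and female, were used at 10 weeks, and 5 uninjured nerves were compared with the injury site of 5 nerves crushed at 8 weeks. Each condition is 1 droplet library (10x Chromium, v2 kit), so a difference between conditions and a difference between libraries cannot be told apart. The sample labels give the age as P56 and write the same treatment, 2 weeks after crush, for both samples, and the groups here follow the sample titles. The authors sorted the barcodes into oligodendrocyte progenitor cells (OPCs), newly formed oligodendrocytes (NFOs) and oligodendrocytes by clustering on the same expression values, so differences between types are descriptions too.

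There were 58 OPC, 44 NFO and 857 oligodendrocyte barcodes in the uninjured library, and 17, 100 and 293 in the injured library. The types differed in the share of barcodes with a marker UMI, with overlap for Fyn and Mag. OPC barcodes held a UMI of Pdgfra in 91.4% of cases before and 76.5% after injury, oligodendrocytes in 1.05% and 0.683%. The NFO marker Fyn was present in 47.7% and 72.0% of NFOs, in 31.0% and 58.8% of OPCs and in 15.6% and 25.3% of oligodendrocytes. The myelin gene Mag was present in 95.3% and 66.6% of oligodendrocytes, in 38.6% and 50% of NFOs and in 12.1% and 35.3% of OPCs. The median barcode held 2782 UMIs in the uninjured and 1304.5 in the injured library (ranges 291 to 34653 and 502 to 58568). No barcode sequence was shared. Of 10 immune markers, none reached 25% of the barcodes of any uninjured type, and 1 did so in injured OPCs, 1 in injured NFOs and 2 in injured oligodendrocytes. Their summed level was 23.3, 10.6 and 22.2 CPM in uninjured and 204, 472 and 206 CPM in injured OPCs, NFOs and oligodendrocytes. CPM stands for the UMIs of a gene per 1000000 UMIs of its group. In CPM the types lay further apart. Fyn stood at 1105 and 2129 CPM in uninjured and injured NFOs. In OPCs it was at 152 and 247 CPM, in oligodendrocytes at 44.1 and 58.6 CPM. Mag stood at 4043 and 3574 CPM in oligodendrocytes, 839 and 1026 CPM in NFOs and 52.5 and 51.0 CPM in OPCs. All intervals below are 95% and cover counting error only.

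Long noncoding RNAs are transcripts that are not translated. Malat1 accumulates in nuclear speckles, where splicing factors are stored, and Neat1, transcribed from a neighbouring gene, is the scaffold of paraspeckles. Meg3 and Kcnq1ot1 come from imprinted domains, Meg3 from the maternal copy of the Dlk1-Dio3 domain and Kcnq1ot1 from the paternal copy of the Kcnq1 domain, which it silences in cis. Miat, also called Gomafu, is a nuclear RNA known from neurons and retina. Gm26870 is a predicted gene model built on tandem repeats. In single-cell preparations, RNAs that are kept in the nucleus are recovered with it, whereas messenger RNAs and ribosomal protein transcripts are mostly cytoplasmic.

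The sequences that bear on how these RNAs are counted come from GENCODE vM21 transcripts on GRCm38 (mm10), written 5′ to 3′ on the strand of the gene. The chemistry captures RNA by its poly(A) or by an internal run of A, so the runs of A and the poly(A) signals are in capitals. Malat1 (ENSMUSG00000092341) lies at chr19:5795690-5802672 on the minus strand, and its longest annotated transcript has 6983 bases. The mature RNA ends without a poly(A) tail of the usual kind. Its only run of at least 10 A, 12 bases long, stands in the single exon, inside the printed stretch at chr19:5795948-5796039, just before the sequence cut off as a small tRNA-like RNA. Kcnq1ot1 (ENSMUSG00000101609) is an unspliced transcript of 93092 bases on the minus strand of chr7:143203458-143296549, and it held 10 such runs, the longest of 41 A inside the printed stretch at chr7:143226905-143227025. Neat1 (ENSMUSG00000092274) lies at chr19:5824708-5845478 on the minus strand, and the end of its short isoform, at chr19:5842307-5842366, carries an AATAAA signal. Meg3 (ENSMUSG00000021268) lies at chr12:109541001-109571726 on the plus strand, and the last exon of transcript Meg3-207 ends at chr12:109571662-109571721 with the same signal.
Malat1: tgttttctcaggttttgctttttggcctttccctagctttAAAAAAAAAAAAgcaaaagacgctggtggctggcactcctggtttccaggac
Kcnq1ot1: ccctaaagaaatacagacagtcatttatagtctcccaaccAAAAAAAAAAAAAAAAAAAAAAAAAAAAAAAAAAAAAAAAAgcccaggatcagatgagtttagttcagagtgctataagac
Neat1: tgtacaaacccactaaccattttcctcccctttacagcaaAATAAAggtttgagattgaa
Meg3: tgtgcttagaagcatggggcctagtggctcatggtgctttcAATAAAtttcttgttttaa

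Runs of 10 or more A on the transcribed strand are not rare. Of 3993 mouse transcripts within 0.8 to 1.25 times the length of Malat1, 31.9% held one, and of the 5 as long as Kcnq1ot1, 80.0% did. Neither the short (3004 bases) nor the long (20771 bases) isoform of Neat1 held one, against 13.7% and 34.9% of transcripts of their lengths. An AATAAA or ATTAAA within the last 60 bases was found in 34.5% of 141515 transcripts. The annotated ends of Malat1-201 and Kcnq1ot1-201 carried one too. The longest Meg3 transcript, Meg3-209 of 14548 bases, held 6 runs of at least 10 A, the longest of 16. Neither feature is thus confined to the RNAs it is printed for. Miat (ENSMUSG00000097767, chr5:112213228-112229395, minus strand) is known for a repeated TACTAAC motif. Its 2 long transcripts held 6 copies each on the transcribed strand, where no other transcript of similar length held more than 3. These matches describe the sequences and were not tied to the counts.

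Malat1 gave the most UMIs of any gene in 5 of the 6 groups of type and library, and ranked 2 in injured oligodendrocytes. Its level in the uninjured nerve was highest in OPCs, at 106890 CPM (105350 to 108450), with oligodendrocytes at 61001 CPM (60763 to 61239) and NFOs at 49846 CPM (48430 to 51293). In the injured nerve the 3 types lay closer together, with OPCs at 37050 CPM, oligodendrocytes at 34163 CPM and NFOs at 28319 CPM, in the same order and with intervals that did not overlap. The ratio of injured to uninjured was 0.347 in OPCs (0.335 to 0.358), 0.568 in NFOs (0.549 to 0.588) and 0.560 in oligodendrocytes (0.556 to 0.565). Only 2.42%, 6.25% and 6.41% of the genes compared had a lower ratio in OPCs, NFOs and oligodendrocytes. Here and below a gene was compared where it had at least 50 UMIs in the 2 groups of the comparison together. These groups were here the libraries of a type, and the median ratio over all compared genes was 1.18, 1.15 and 1.03. Among barcodes under 8000 UMIs the Malat1 ratios were lower still, at 0.231, 0.186 and 0.415. The order of the uninjured types held over all depths together but not at each depth. Uninjured OPCs stood at 41484 CPM and oligodendrocytes at 43570 CPM at 500 to 1000 UMIs. At 1000 to 2000 UMIs they were at 222750 and 101730 CPM, at 2000 to 4000 at 157970 and 94160 CPM. At 4000 to 8000 UMIs they were at 74385 and 73398 CPM, below 4 NFOs at 125190 CPM. From 8000 UMIs on, 1 OPC stood at 35587 CPM and oligodendrocytes at 45824 CPM.

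**Figure D1:**
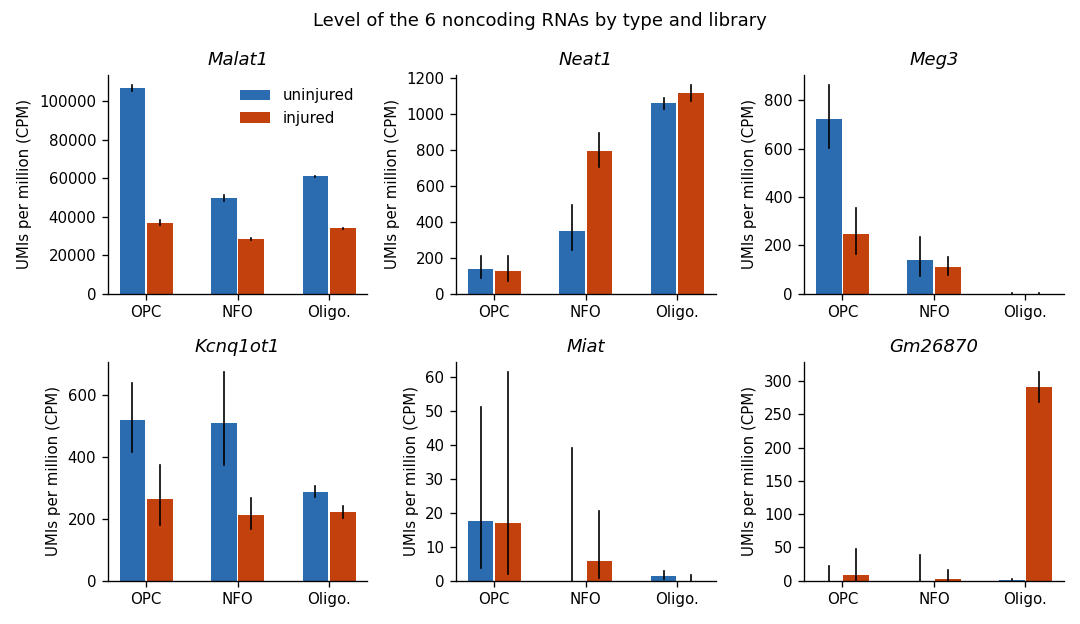
Level of each RNA in CPM (linear axes from 0) by type and library, summed over the barcodes of the group, with exact Poisson 95% intervals as black lines. Malat1 is lower in the injured library in each type, Neat1 is highest in oligodendrocytes, Meg3 in uninjured OPCs, Kcnq1ot1 in uninjured OPCs and NFOs, and Gm26870 reaches 291 CPM in injured oligodendrocytes alone.

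Of the 6 RNAs, Meg3 differed most between OPCs and oligodendrocytes. It stood at 724 CPM (602 to 863) in uninjured OPCs and 138 CPM (73.5 to 236) in uninjured NFOs, and 2 UMIs were found among the 857 uninjured oligodendrocytes, a ratio of OPCs to oligodendrocytes of 1502 with an interval of 407 to 12537. A Meg3 UMI was present in 72.4% of uninjured OPC barcodes and in 0.233% of oligodendrocytes, and in 34.5% and 0.0753% after each barcode was thinned to 500 UMIs, which leaves out 2 uninjured OPCs and 19 oligodendrocytes that were shallower. In the injured library OPCs held 247 CPM (165 to 354), NFOs 111 CPM (78.8 to 152) and oligodendrocytes again 2 UMIs. The injured-to-uninjured ratio was 0.341 (0.219 to 0.514) in OPCs and 0.803 (0.419 to 1.64) in NFOs, where the interval spans 1. Among barcodes under 8000 UMIs the values were 0.199 and 0.277.

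Kcnq1ot1 followed the order of Malat1 less closely. Uninjured OPCs and NFOs could not be told apart, at 519 CPM (417 to 639) and 510 CPM (376 to 676), a ratio of 1.02 (0.709 to 1.48), and both were above oligodendrocytes at 288 CPM (272 to 305). In the injured library the 3 types could not be ordered, with OPCs at 264 CPM (179 to 374), NFOs at 213 CPM (168 to 267) and oligodendrocytes at 221 CPM (202 to 241). The ratio of injured to uninjured was 0.507 (0.326 to 0.772) in OPCs, 0.418 (0.287 to 0.614) in NFOs and 0.765 (0.688 to 0.849) in oligodendrocytes. In OPCs it was 0.852 among barcodes under 8000 UMIs, in NFOs 0.271, and in oligodendrocytes it was 0.474 as a mean over barcodes.

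Neat1 ran the other way across the lineage. It was lowest in OPCs, at 140 CPM (89.8 to 208) uninjured and 128 CPM (71.4 to 210) injured, and highest in oligodendrocytes, at 1057 CPM (1026 to 1089) and 1114 CPM (1072 to 1158). The ratio of OPCs to oligodendrocytes was 0.132 (0.0848 to 0.197) in the uninjured and 0.114 (0.0640 to 0.189) in the injured library. Over all depths together NFOs lay between them, at 351 CPM (241 to 492) and 796 CPM (705 to 895), a ratio of 2.27 (1.58 to 3.36). Of the 33 Neat1 UMIs in uninjured NFOs, 69.7% came from 1 barcode, and without the barcode richest in Neat1 in each library the ratio was 5.97. It was 6.32 among barcodes with 500 genes or more and mitochondrial UMIs of 10% or less, and 1.498 among those under 8000 UMIs. In oligodendrocytes as a whole the ratio was 1.05 (1.004 to 1.11), and it was 0.611 when CPM was averaged over barcodes, so its direction depended on how barcodes of different depth were weighed. In OPCs it was 0.911 (0.444 to 1.81), where the interval spans 1, and it turned to 2.06 among barcodes under 8000 UMIs and to 1.96 as a mean over barcodes. The order of injured NFOs and oligodendrocytes did not hold at each depth. At 4000 to 8000 UMIs they were at 324 and 3924 CPM, but from 8000 UMIs on at 888 CPM (760 to 1031) and 852 CPM (812 to 893). Among injured barcodes with 0.5% or more of their UMIs from Malat1 they were at 1173 and 1170 CPM.

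Across all genes, differences of 2-fold or more between types were common, but those of Meg3 and Neat1 were larger than most. Between uninjured OPCs and oligodendrocytes 99.974% of the genes compared had a lower ratio than Meg3, and 6.10% a lower one than Neat1. Of 4 noncoding RNAs compared between uninjured OPCs and oligodendrocytes, Meg3 was at 2 or more (18.6% of all genes) and Neat1 at or below 0.5 (19.9%). Of 3 compared between uninjured NFOs and oligodendrocytes, Neat1 was at or below 0.5 (24%) and none at 2 or more (17.7%). In the injured library Neat1 and Gm26870 were at or below 0.5 in OPCs (22.6% of all genes) and Gm26870 in NFOs (19.4%), and none was at 2 or more (18.4% and 13.5%). Meg3 had enough UMIs to be compared only through the OPCs and Gm26870 only through the oligodendrocytes, where each was high, so these cases had to differ.

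Miat was close to the limit of detection, with 8 UMIs in 8 of 959 uninjured barcodes and 4 UMIs in 3 of 410 injured barcodes. OPCs, with 3 and 2 UMIs, stood at 17.5 CPM (3.61 to 51.2) and 17.0 CPM (2.06 to 61.4). No UMI was seen in 293 injured oligodendrocytes, for which the exact upper limit on barcodes with a UMI is 1.25%, and 0 of 44 uninjured NFOs gave a limit of 8.04%. At these depths the limits concern detected UMIs, not cells with the RNA. No change was detectable at this depth in any type.

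Against the background of all genes, 3 of the 6 RNAs could be compared in OPCs, and Malat1 and Meg3 were at or below a ratio of 0.5, as were 6.45% of all genes, with none at 2 or more (10.3% of all genes). In NFOs, 4 could be compared, with Kcnq1ot1 at or below 0.5 (4.01% of all genes) and Neat1 at 2 or more (13.3%). In oligodendrocytes 4 could be compared, none was at or below 0.5 (4.06% of all genes) and 1, Gm26870, was at 2 or more (5.98%). Gm26870 had enough UMIs to be compared only through the injured library, where it was high.

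Malat1 was not spread evenly over barcodes. In uninjured OPCs it made up 0.977% to 39.1% of a barcode's UMIs, with a median of 8.34%, and in injured OPCs 0% to 7.44%, with a median of 4.33%. The median was 0.154% in uninjured and 0.112% in injured NFOs, with highest values of 19.7% and 17.2%. In oligodendrocytes the median was 5.27% (quartiles 3.23% and 9.81%) uninjured and 0.692% (quartiles 0.166% and 3.49%) injured. The injured oligodendrocytes fell into a low and a high range, with 50 of 293 barcodes under 0.1%, 13 between 1% and 2%, and 63 between 2% and 4%. In the uninjured library 31 of 857 were under 0.1%, 10 were between 0.5% and 1%, and 297 were between 4% and 8%.

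**Figure D2:**
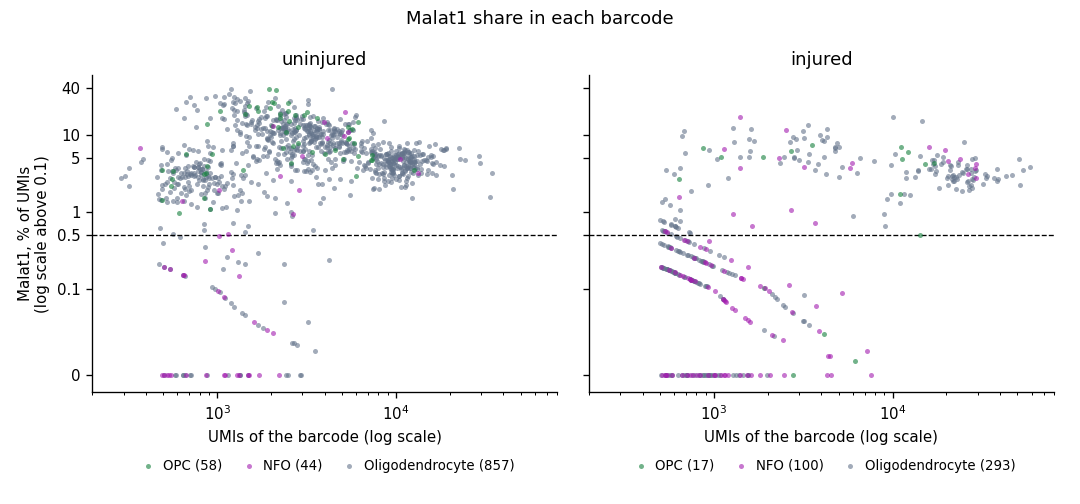
Each point is a barcode, placed by its UMIs (log axis) and by the percentage of them from Malat1 (log axis above 0.1, linear below), coloured by the authors' type, with the dashed line at 0.5%. Slanting rows of points are barcodes with 1, 2 or 3 Malat1 UMIs, and the low range below the line holds 133 of 293 injured oligodendrocytes against 48 of 857 uninjured ones.

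Barcodes with under 0.5% of their UMIs from Malat1 are called Malat1-poor here. They made up 5.60% (4.16% to 7.36%) of uninjured and 45.4% (39.6% to 51.3%) of injured oligodendrocytes, 63.6% (47.8% to 77.6%) and 77.0% (67.5% to 84.8%) of NFOs, and 0 of 58 and 5 of 17 OPCs. Among NFOs the intervals of the libraries overlap. Among OPCs the uninjured share could be as high as 6.16% and the injured share lay between 10.3% and 55.96%.

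The share of Malat1-poor barcodes went down with depth in oligodendrocytes of both libraries. The depth classes used here run from 500 to 1000, 1000 to 2000, 2000 to 4000 and 4000 to 8000 UMIs, each without its upper edge, and from 8000 UMIs on. In injured oligodendrocytes it was 75.9% at 500 to 1000 UMIs, 67.7% at 1000 to 2000 and 39.3% at 2000 to 4000, and no Malat1-poor barcode was found among the 17 at 4000 to 8000 or the 84 at 8000 UMIs and more. In uninjured oligodendrocytes it was 12.3%, 11.7%, 5.02% and 0.752%, and 0 of 203 at the deepest. At each of the 3 shallower depths the injured share was above the uninjured one with intervals that did not overlap. In NFOs the share was 91.7% in both libraries at 500 to 1000 UMIs, and 87.5% uninjured and 84.8% injured at 1000 to 2000. It was 25% (2 of 8, 3.19% to 65.1%) and 64.3% (9 of 14, 35.1% to 87.2%) at 2000 to 4000, and 0 of 4 (up to 60.2%) and 77.8% (7 of 9, 39.99% to 97.2%) at 4000 to 8000, so in both classes the injured share was higher with overlapping intervals. None of the 2 uninjured and 8 injured NFOs at 8000 UMIs and more was Malat1-poor.

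At matched depth the difference in Malat1 between the libraries was smaller in the deeper oligodendrocytes. In oligodendrocytes the ratio of injured to uninjured was 0.142 (0.130 to 0.155) at 500 to 1000 UMIs, 0.261 at 1000 to 2000, 0.481 at 2000 to 4000, 0.780 at 4000 to 8000 and 0.745 (0.738 to 0.752) at 8000 and more. Malat1 was at or below 0.5 in the 3 shallower of these classes, as were 36.0%, 30.3% and 18% of all genes compared, and above it in the deeper ones (19% and 3.13% of all genes). In NFOs it did not hold to 1 direction, with ratios of 1.03, 4.80, 0.284, 0.0790 and 1.09 from the shallowest to the deepest of these classes. In OPCs the ratios were 1.203 (0.926 to 1.54), 0.145, 0.303, 0.00393 and 1.13, from 2 to 7 injured barcodes a class, and the lowest rests on 3 injured UMIs. The deepest class held 7 of 17 injured but 1 of 58 uninjured OPCs.

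Neat1 and Kcnq1ot1 changed direction with depth in oligodendrocytes. In the uninjured library Neat1 went down at each step, from 6419 CPM at 500 to 1000 UMIs to 2902, 2066, 779 and 488 CPM. In the injured library it was 514 CPM at 500 to 1000 UMIs, 3617, 3963 and 3924 CPM in the middle classes, and 852 CPM at 8000 and more. The ratio of injured to uninjured was 0.0802 (0.0583 to 0.108) in the shallowest class, then 1.25 (1.04 to 1.49), 1.92 (1.69 to 2.168), 5.04 (4.40 to 5.77) and 1.75 (1.62 to 1.88). At 4000 to 8000 UMIs, where 99.7% of the 2892 genes compared had a lower ratio than Neat1, its median share of a barcode's UMIs was 0.0552% over 133 uninjured and 0.398% over 17 injured barcodes. Neat1 was at 2 or more in that class alone, where 10.0% of all genes were. In the class next below it and the deepest class 6.45% and 7.78% of all genes reached 2, with Gm26870 among them, and in the 2 shallowest 34.6% and 15.5% did, with none of the 6 RNAs.

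**Figure D3:**
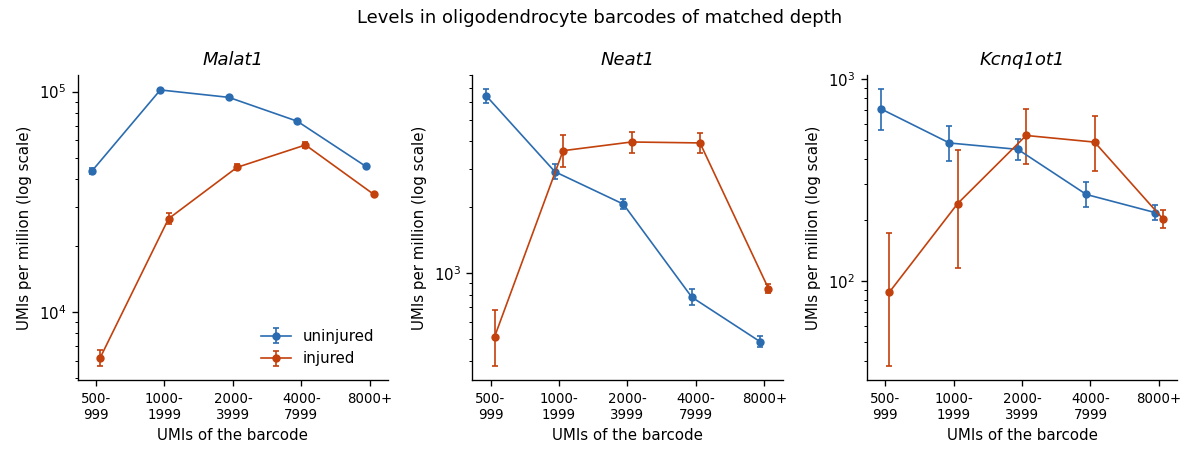
Malat1, Neat1 and Kcnq1ot1 in oligodendrocyte barcodes grouped by their UMIs, in CPM on log axes, with exact Poisson 95% intervals, for the uninjured (blue) and injured (orange) library. The injured library is lowest in the shallowest class for all 3 RNAs, and for Neat1 it is above the uninjured library from 1000 UMIs on.

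Kcnq1ot1 had a similar but weaker course, with ratios of 0.123 (0.0513 to 0.256), 0.501 (0.233 to 0.960), 1.17 (0.830 to 1.62), 1.82 (1.27 to 2.54) and 0.929 (0.814 to 1.06). Its uninjured level went down with depth from 710 to 218 CPM, while the injured level was 87.6 CPM in the shallowest class, 524 CPM at 2000 to 4000 UMIs and 202 CPM in the deepest. At 2000 to 4000 UMIs and in the deepest class the interval of the ratio spans 1.

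Between the deepest and the shallowest of 3 equal parts of the barcodes, Malat1 was lower in deep uninjured oligodendrocytes (ratio 0.635, 0.626 to 0.644) and higher in deep injured ones (4.68, 4.26 to 5.15). In NFOs it was higher in deep barcodes in both libraries, by 14.5-fold (10.6 to 20.3) and 16.1-fold (12.1 to 21.9), and Neat1 was 4.60-fold (1.77 to 17.0) higher in deep injured NFOs. Of all genes compared in NFOs, 9.84% in the uninjured and 23.2% in the injured library were at 2 or more, and 3.28% and 3.99% at or below 0.5. Neat1 followed with a ratio of 0.125 (0.115 to 0.134) in uninjured and 1.47 (1.07 to 2.08) in injured oligodendrocytes. Kcnq1ot1 had ratios of 0.392 (0.330 to 0.468) and 1.82 (0.877 to 4.56). In the injured oligodendrocytes 51.6% of all genes were at a ratio of 2 or more and 4.71% at or below 0.5. The shallow barcodes there had a median of 605 UMIs, against 21180 in the deep ones. A gene without a UMI in the shallow barcodes counted as 2 or more, which can raise the 51.6%. In the uninjured oligodendrocytes the shares were 14.7% and 18.7%, and 0.0297% of the genes had a lower ratio than Neat1.

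Immune markers moved with these depths. Their summed level in injured oligodendrocytes was 2529, 1133, 512, 324 and 63.5 CPM from the shallowest to the deepest class, against 14.6 to 69.0 CPM in the same classes of the uninjured library. Defining immune genes were near 0 in the uninjured oligodendrocytes, with 1 UMI each of Ptprc and Aif1, and present in the injured ones, with 8 and 20 UMIs. Leaving out any barcode with a UMI of the 10 immune markers kept 792 of 857 uninjured but 86 of 293 injured oligodendrocytes. The oligodendrocyte ratios of Neat1 were then 0.0960, 0.634, 0.435, 3.03 and 1.68, and 0.836 (0.754 to 0.925) over all depths. The 1000 to 2000 and 2000 to 4000 classes thus turned direction, with 10 injured barcodes left in each, as did the ratio over all depths. The ratios of Kcnq1ot1 were then 0.194 (0.0514 to 0.521), 0.782, 0.511, 0.969 and 0.778 (0.586 to 1.02), none above 1, from 4 to 6 injured UMIs in the classes below 8000. The ratios of Malat1 were then 0.201, 0.325, 0.135, 0.526 and 0.664, below 1 throughout. These barcodes were removed after seeing the data, and the part of other cells' RNA in the levels was not tested.

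The other nuclear RNAs were low where Malat1 was low. Not 1 of the 48 Kcnq1ot1 UMIs of uninjured NFOs and the 75 of injured NFOs fell in a Malat1-poor barcode. At 500 to 1000 UMIs, with 11 of the uninjured and 33 of the injured Malat1-poor NFOs, and at 1000 to 2000 UMIs, with 14 and 28, the other NFOs held 1 Kcnq1ot1 UMI in all, so no difference was detectable there. Among injured NFOs at 2000 to 4000 UMIs 9 Malat1-poor barcodes held 0 and 5 others 11, a ratio of at most 0.164, and at 4000 to 8000 UMIs 7 held 0 and 2 others 10, at most 0.0940. In uninjured NFOs at 2000 to 4000 UMIs 2 held 0 and 6 others 14, at most 0.846. In oligodendrocytes 1 of 1197 Kcnq1ot1 UMIs in the uninjured and 1 of 508 in the injured library did so, ratios of Malat1-poor to other barcodes of 0.0486 (0.00123 to 0.272) and 0.0335 (0.000846 to 0.187). Over NFOs of all depths the floor of 3 UMIs gives ratios of at most 0.131 and 0.0740. The injured OPCs showed the same for both imprinted RNAs, with 0 of 31 Kcnq1ot1 and 0 of 29 Meg3 UMIs in the 5 Malat1-poor barcodes. Of the Meg3 UMIs in NFOs, 0 of 13 in the uninjured and 1 of 39 in the injured library were in Malat1-poor barcodes. But 34 of the 39 were in the 8 injured NFOs from 8000 UMIs on, where none was Malat1-poor, and 53.8% came from 1 barcode. Of the 13, 6 were at 4000 to 8000 and 5 from 8000 UMIs on, where no uninjured NFO was Malat1-poor. At matched depth no difference in Meg3 was detectable in NFOs.

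Neat1 was present at a low level in the Malat1-poor barcodes. It stood at 114 CPM against 1074 CPM in uninjured oligodendrocytes (ratio 0.106, 0.0459 to 0.210), at 179 against 1170 CPM in injured oligodendrocytes (0.153, 0.0971 to 0.231) and at 97.2 against 1173 CPM in injured NFOs (0.0829, 0.0423 to 0.147). In uninjured NFOs 2 of 33 Neat1 UMIs were in Malat1-poor barcodes (0.136, 0.0157 to 0.533). Within depth classes of injured oligodendrocytes the ratio was 0.106 (0.0513 to 0.206) at 500 to 1000, 0.0295 (0.0125 to 0.0597) at 1000 to 2000 and 0.0111 (0.00134 to 0.0404) at 2000 to 4000 UMIs. At matched depth the uninjured ones gave 0.0118 (0.000299 to 0.0661), 0.0405 and 0.0608, from 1, 3 and 4 UMIs in Malat1-poor barcodes. In injured OPCs it was at 137 CPM in 5 Malat1-poor and 124 CPM in 12 other barcodes from 4 and 11 UMIs (ratio 1.10, 0.256 to 3.72). Of the 4 UMIs, 3 came from 1 barcode over 8000 UMIs, and among barcodes under 8000 UMIs the ratio was 0.103.

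**Figure D4:**
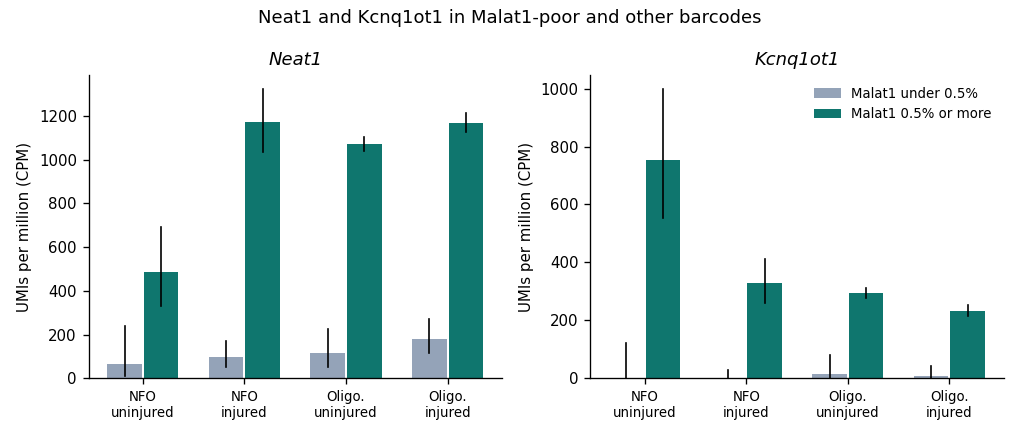
Neat1 and Kcnq1ot1 in CPM (linear axes from 0, exact Poisson 95% intervals) in barcodes with under 0.5% Malat1 (grey) and in other barcodes (green) of NFOs and oligodendrocytes. Kcnq1ot1 is at 0 in the Malat1-poor NFOs of both libraries, and Neat1 is lower in each of the 4 Malat1-poor groups.

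Low levels were common in these barcodes. In injured oligodendrocytes 47.5% of 5969 genes were at or below a ratio of 0.5 between Malat1-poor and other barcodes, and in uninjured ones 34.6% of 7526. In NFOs the shares were 9.54% of 241 genes in the uninjured and 10.3% of 1308 in the injured library. A ratio of 2 or more was rarer except in uninjured NFOs. It was found for 3.38%, 7.67%, 9.96% and 3.06% of genes in injured and uninjured oligodendrocytes and uninjured and injured NFOs. Malat1 itself defined the contrast and is not counted. Neat1 and Kcnq1ot1 could be compared in oligodendrocytes of both libraries and in injured NFOs, and Gm26870 in injured oligodendrocytes. None of them had a ratio of 2 or more. In uninjured NFOs no RNA of the list besides Malat1 had enough UMIs to be compared. Neat1 was below all but 0.612% of the genes in injured NFOs and below all but 12.1% in injured oligodendrocytes. In uninjured oligodendrocytes 19.5% of the genes were lower than Neat1. Kcnq1ot1 had 7.82% of the genes lower in injured and 19.3% in uninjured oligodendrocytes. Malat1, which defined the contrast, itself had 7.84% and 19.2% of the genes lower there. A gene with few UMIs can have 0 in the shallow Malat1-poor barcodes. In oligodendrocytes these ranks therefore do not measure how far an RNA is set apart.

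Proteins that sit with these RNAs in the nucleus were counted too, as their messenger RNAs. Of 28 speckle protein genes, 17 in injured oligodendrocytes were at or below 0.5 in the Malat1-poor barcodes (median ratio 0.334, all genes 0.527), and in uninjured ones 18 of 28 (median 0.418, all genes 0.765). In injured NFOs 11 of the 21 compared were (median 0.411, all genes 1.09). Srrm2, a speckle scaffold protein, had a ratio of 0.149 (0.0681 to 0.284) in injured oligodendrocytes, and the SR protein kinase gene Clk1 had a ratio of 0.243. Of the paraspeckle protein genes, 10 of 16 in injured (median 0.388) and 10 of 18 in uninjured oligodendrocytes (median 0.455) were at or below 0.5. In injured NFOs 1 of 8 was, with a median of 1.0004 beside 1.09 for all genes.

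The Malat1-poor barcodes were shallower and richer in mitochondrial and ribosomal protein RNA. Their median was 774 UMIs in injured oligodendrocytes, against 9803.5 in the others. Mitochondrial UMIs made up 6.18% against 3.89%, those of 80 ribosomal protein genes 9.43% against 3.65%, and the immune marker level was 1615 against 123 CPM. In the uninjured library the values were 1168.5 against 3250 UMIs, 11.1% against 7.21%, 7.35% against 4.47% and 57.0 against 21.6 CPM. The gene model Gm42418, which overlaps ribosomal RNA sequence, was 6.13-fold higher (64004 against 10433 CPM) in the Malat1-poor injured oligodendrocytes and 1.68-fold higher in the uninjured ones. Oligodendrocyte markers were detected in both sets, at 46119 and 60532 CPM in the injured library. The part of depth, of RNA quality and of other cells in the low nuclear RNA was not tested.

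Gm26870 (ENSMUSG00000097312) lies at chr9:3000282-3038313 on the minus strand, and its transcripts are tandem repeats. In transcript Gm26870-202, of 1143 bases, 95.9% of bases matched those 234 bases further on. The first 2 units, both in exon 1, at chr9:3038077-3038310 and chr9:3037843-3038076, are shown because they are what a read from this locus would have to be told apart by. They differed at 17 of 234 bases, in capitals in unit 2. Over 468 aligned columns Gm10800 (ENSMUSG00000075014, chr2:98666547-98667301), read on the opposite strand, was 91.5% identical to these units, and its capitals mark the longest exact stretch shared with unit 1, of 42 bases.
Gm26870 unit 1: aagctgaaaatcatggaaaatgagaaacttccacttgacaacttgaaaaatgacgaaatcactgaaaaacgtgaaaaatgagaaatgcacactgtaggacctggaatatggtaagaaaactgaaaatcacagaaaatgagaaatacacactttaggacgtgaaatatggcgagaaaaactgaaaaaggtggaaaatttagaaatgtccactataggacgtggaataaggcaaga
Gm26870 unit 2: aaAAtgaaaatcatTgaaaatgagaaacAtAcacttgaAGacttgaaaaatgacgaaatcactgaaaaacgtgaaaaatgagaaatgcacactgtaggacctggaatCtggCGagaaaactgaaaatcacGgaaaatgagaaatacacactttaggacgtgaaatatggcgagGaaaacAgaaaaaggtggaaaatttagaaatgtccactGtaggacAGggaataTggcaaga
Gm10800 reverse complement: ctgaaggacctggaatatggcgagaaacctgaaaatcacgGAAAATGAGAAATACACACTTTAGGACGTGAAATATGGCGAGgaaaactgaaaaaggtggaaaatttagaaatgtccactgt

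Stretches of 20 bases of Gm26870 recurred in 12 other annotated genes, in each case on the opposite strand, and the 11 satellite-like gene models listed for this comparison were among them. Counts of such near-identical copies are uncertain, since reads that match more than 1 place may be dropped or assigned to a copy. Within that limit, Gm26870 was found almost wholly in the injured library. It had 672 UMIs in 16 of 410 injured barcodes and 5 UMIs in 5 of 959 uninjured barcodes, 1 in each.

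In oligodendrocytes the level was 291 CPM (269 to 314) in the injured and 1.21 CPM (0.391 to 2.81) in the uninjured library, a ratio of 242 (103 to 746). This came from few barcodes. Of 293 injured oligodendrocytes, 14 held a UMI and 6 held at least 20, with 227, 220, 76, 70, 40 and 20 UMIs, which was 97.5% of the 670 in all. The first and second of these held 66.7%. OPCs and NFOs of the injured library had 1 UMI each, and those of the uninjured library none.

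**Figure D5:**
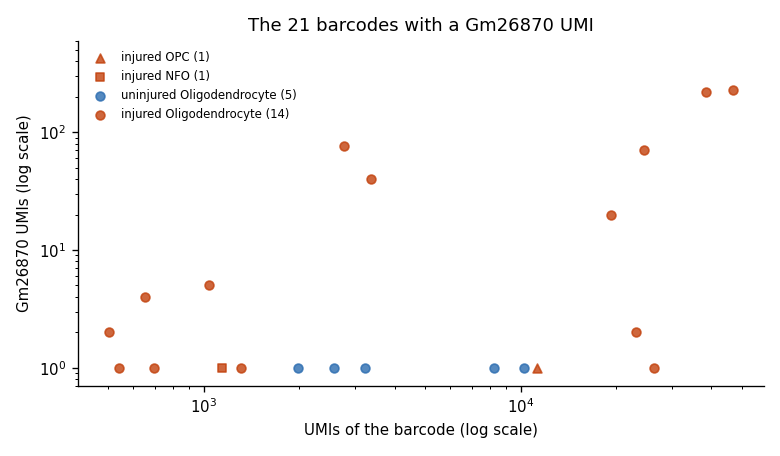
The 21 barcodes with at least 1 UMI of Gm26870, placed by their UMIs and by their Gm26870 UMIs (both log axes), with colour for the library and shape for the type. The 6 barcodes with 20 or more are injured oligodendrocytes, and the 5 uninjured barcodes have 1 UMI each.

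The 6 barcodes were not alike in depth. They held 46653, 38358, 24457 and 19261 UMIs in 4 cases and 2768 and 3360 UMIs in the other two, where Gm26870 made up 2.75% and 1.19% of all UMIs. None was Malat1-poor, with Malat1 between 1.87% and 9.28% of UMIs. Gm10800 had 10 UMIs in all, in 4 of these 6 barcodes and nowhere else among the 1369, and the other 10 satellite-like models had none in either library. Without the deepest 5% of barcodes the ratio of Gm26870 was 89.6.

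The genes that varied most like each RNA were sought over 18 groups, which are the 3 types in each library parted into 3 depth classes of equal size, among 5321 genes with at least 200 UMIs. The groups share libraries and differ in depth, so the correlations (Pearson's r of log2(CPM + 10)) are descriptions. Closest to Malat1 were Marf1 (r = 0.955), which encodes an RNA-binding regulator of transcript stability, Kcnq1ot1 (0.918), the endocytic receptor gene Lrp1b (0.905), the speckle scaffold gene Son (0.893) and Leng8 (0.884). Kcnq1ot1 was nearest to Leng8 (0.957), Marf1 (0.955) and Lrp1b (0.951), followed by Cnot4 and Ubn2 (both 0.924). The same 3 genes thus stood near both RNAs.

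Neat1 had other neighbours, Inf2 (0.858), a formin that shapes actin, Srcin1 (0.847), Nkain2 (0.839), Cyth1 (0.838) and Tulp4 (0.835), and its r with Malat1 was 0.260, below that of 2183 of the other genes. Inf2 stood at 204 CPM in uninjured oligodendrocytes and 23.3 CPM in uninjured OPCs. The neighbours of Meg3 were Dclk1 (0.904), a microtubule-associated kinase, Gria2 (0.903), an AMPA receptor subunit, Pcdh15 (0.883), Limd1 (0.875) and Nlgn3 (0.852). Gria2 was at 1407 CPM in uninjured OPCs and 9.40 CPM in oligodendrocytes. Gm26870 varied most like Klk8 (0.894), a secreted serine protease, and Chchd10 (0.888), a mitochondrial protein gene, ahead of Rnase4 (0.815), Slc9a3r2 (0.807) and Nrtn (0.792). Klk8 had 1112 UMIs in injured and 1 in uninjured oligodendrocytes. Gm26870 reached 200 UMIs only through the injured oligodendrocytes, with 670 of its 677 UMIs. A gene high in that group alone would therefore have a high r with it, and Klk8 restates this. Meg3 reached 200 UMIs only through the OPCs, with 124 of its 209 UMIs in uninjured and 29 in injured ones. The same thus holds for its neighbours high in OPCs.

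Few related genes differed by 2-fold between the libraries. In oligodendrocytes none of 28 speckle protein genes (median ratio 0.856) or 18 paraspeckle protein genes (0.945) reached a 2-fold difference, beside a median of 1.03 over all genes. At matched depth the counts were other: at 500 to 1000 UMIs all 12 speckle protein genes compared were at or below 0.5 (median 0.150, 36.0% of all genes), as were both paraspeckle protein genes compared. At 1000 to 2000 UMIs 7 of 18 speckle genes were at or below 0.5 (median 0.541, 30.3% of all genes). At 2000 to 4000 UMIs 3 of 25 were at or below 0.5 and 1 at 2 or more (median 0.829, 18% and 6.45% of all genes). At 4000 to 8000 UMIs 6 of 27 were at 2 or more and 2 at or below 0.5 (median 1.37, 10.0% and 19% of all genes), and from 8000 UMIs on none of 28 differed by 2-fold (median 1.13, 7.78% of all genes higher and 3.13% lower). Over all depths the lowest ratios were those of the splicing factor gene Srsf2 (0.563, 0.491 to 0.644) and of Hnrnph1 (0.539), and the highest were those of Srsf4 (1.51) and Srsf10 (82.1 against 54.7 CPM). Of 13 other long noncoding RNAs compared, Pvt1, transcribed beside Myc, was higher (3.18, 2.00 to 5.16, from 53 and 30 UMIs) and C130071C03Rik lower (0.451), beside 5.98% of all genes at 2 or more and 4.06% at or below 0.5. Of 4 snoRNA host genes, which carry small nucleolar RNAs in their introns, Snhg9 was lower (0.418). None of 4 genes compared from the Kcnq1 domain passed 2-fold, and the imprinted growth inhibitor gene Cdkn1c stood at 0.745 (0.636 to 0.871). No listed gene of the Dlk1-Dio3 domain had enough UMIs in oligodendrocytes to be compared. In NFOs, of 3 other long noncoding RNAs compared, Gm42418 alone was at 2 or more (2.35), as were 13.3% of all genes.

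Xist, the nuclear RNA that coats the inactive X chromosome in female cells, was looked for among the other long noncoding RNAs. It had 1 UMI in 1 of 959 uninjured barcodes and none in 410 injured barcodes. The Y-linked genes Ddx3y, Eif2s3y, Uty and Kdm5d together had 1258 UMIs in 572 uninjured and 620 UMIs in 156 injured barcodes (285 and 224 CPM). The labels give both libraries as pooled male and female.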

How the data were processed

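Cells of the uninjured and injured optic nerve were profiled by scRNA-seq, 1 library each. Reads were aligned to mm10 by the authors with Cell Ranger 1.3 (bcl2fastq 2.17.1.14), as the submitters' processing notes also list. The deposited values are normalized expression (NE), made by the authors with Seurat 4.0.3 as the natural log of 1 plus 10000 times a gene's UMIs over all UMIs of the barcode. The authors filtered barcodes, drew equal numbers per library and kept and typed the oligodendrocyte lineage. Other cell types were not analysed here, and the table of both libraries together was not used.

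UMIs were recovered from NE by dividing each barcode's values, out of the log, by the smallest. They were whole within 0.001 in 100% of barcodes. The libraries held 4414834 and 2771797 UMIs, 94130 of them in uninjured NFOs, which limits rare RNAs there most. UMIs were summed by type, library and depth class and given as CPM with exact Poisson intervals. Ratios have exact conditional binomial intervals and shares exact Clopper-Pearson intervals. PCR duplicates were removed by UMI upstream, and intervals cover counting error only. A ratio against 0 UMIs used a floor of 3 UMIs over the group and has no interval. With 1 library per condition no test was possible and no p-value was computed. Doublets were not called, and leaving out the deepest 5% of barcodes stands in for it. A gene was compared with at least 50 UMIs over the 2 groups of a comparison and counted as changed at a ratio of at least 2 or at most 0.5. The named genes are the 6 RNAs, the 5 nearest genes by r, and the 3 highest and 3 lowest ratios of each list in oligodendrocytes and NFOs. Of the 16 lists, those of cell type markers were left out of this rule. Pdgfra, Fyn, Mag, Ptprc, Aif1, Xist, the Y-linked genes and Gm10800 are named outside it, from the marker and satellite lists. The RNAs, lists and thresholds were chosen with earlier results of these data known. Of 31053 gene names 30438 matched GENCODE vM21. The calculation was tested on simulated data. Python 3.11.15, numpy 2.4.6, scipy 1.17.1, pandas 2.3.3, matplotlib 3.10.9 and Biopython 1.88 were used, and TMM factors, computed in numpy, served as an alternative scaling only.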

Additional observations from a re-analysis of the deposited data

How the results depend on the processing

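Of 271 alternative values for 57 results, 199 stayed within counting error (counts of genes within a fixed factor), 68 moved by more and 4, of ratios whose interval left out 1, turned direction. Another 7 alternatives crossed 1 for ratios whose interval spans 1, among them Neat1 in OPCs and Neat1 in Malat1-poor injured OPCs. Neat1 in oligodendrocytes, at a ratio of 1.05, was 0.968 without the deepest 5% of barcodes, 0.611 as a mean over barcodes and 0.987 scaled without Malat1 and mitochondrial UMIs. Malat1 in deep over shallow injured OPCs was 1.19 (1.04 to 1.36) with the barcodes in 3 parts and 0.838 when parted at the median depth. The Malat1 ratio of injured to uninjured stayed under 1 in each type under the following alternatives. Among barcodes with 500 genes or more and mitochondrial UMIs of 10% or less it was 0.331 in OPCs and 0.640 in NFOs. Under 8000 UMIs it was 0.231, 0.186 and 0.415 in OPCs, NFOs and oligodendrocytes. With at least 1000 UMIs it was 0.332 in OPCs and 0.574 in oligodendrocytes. Without the deepest 5% it was 0.303, 0.468 and 0.547, as a mean over barcodes 0.315, 0.428 and 0.323, and scaled without Malat1 and mitochondrial UMIs 0.310, 0.523 and 0.524. Without the barcode richest in Malat1 (chosen after seeing the data) it was 0.319 in OPCs and 0.656 in NFOs. The Malat1-poor share under the stricter filter was 47.4% in uninjured NFOs and 2.17% and 27.8% in uninjured and injured oligodendrocytes, and with at least 1000 UMIs 4.14% and 20% in the latter. In injured oligodendrocytes it was 63.6% under 8000 UMIs, 34.8% when poor meant under 0.25% Malat1 and 52.9% under 1%. The genes at least 2-fold higher in injured oligodendrocytes numbered 514, or 251 under 8000 UMIs and 222 with at least 200 UMIs per gene, and those lower 349, or 879 and 157. The cause of these shifts was not tested beyond the fewer barcodes or genes each leaves. No paired analysis was possible because each condition has 1 library.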
